A study of Mus musculus with 6 samples.

Results

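The Hox genes encode homeodomain transcription factors and lie in 4 clusters, HoxA, HoxB, HoxC and HoxD. The members described here were the genes with a probe that carried exactly 1 symbol, made of Hox, a cluster letter and a paralogue number. They numbered 34 of the 39 Hox genes that RefSeq lists for the mouse, on 35 probes, among 18015 genes with a named probe and a value. Hoxc13 had no value on any array, which left 33 genes measured. The others were not analysed here. Where a gene had more than 1 probe, which was so for Hoxd13 alone, the probe with the highest mean over the 6 arrays stood for it.

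The arrays were 1-colour CodeLink mouse whole genome arrays of 3T3-L1 cells, a mouse embryo fibroblast line that turns into fat-storing adipocytes under an adipogenic mixture. The control group was 3 arrays of adipocytes that carried only the Tet-off plasmid, and the UCP1 group was 3 arrays of adipocytes that expressed uncoupling protein 1, the proton carrier of brown fat mitochondria. RNA of both groups was taken 10 days after differentiation. The labels do not say whether the UCP1 cells were 1 clone, whether tetracycline was used, or whether replicate arrays had cultures of their own. A p-value here therefore reflects the scatter of these 6 arrays, part of which may be technical. The titles of the UCP1 group end in UCP1, UCP2 and UCP3, while the source text names uncoupling protein 1 for all 3, so the digit was read as a replicate number. The question for these genes was which of them gave signal in the 2 cell lines, and whether the lines differed in them.

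Along each cluster, the gene order follows the order of expression along the body axis of the embryo. Low paralogue numbers, at the 3′ end, are expressed first and towards the head, and high numbers, at the 5′ end, later and towards the tail. The pattern set in the embryo is kept in adult fibroblasts and in fat depots, where it differs between sites of the body, and it is held in place by Polycomb proteins, which silence Hox genes, and Trithorax proteins, which keep them active. Hox proteins bind DNA together with cofactors of the Pbx, Meis and Pknox families.

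Windows of 250 bases before the RefSeq start (assembly GRCm38.p6) are shown for 4 members. Hoxa5 and Hoxd8 gave signal well above background in both lines, while Hoxa6, next to Hoxa5, and Hoxd13, at the 5′ end of the cluster of Hoxd8, were dim in both. Capitals mark CpG, the dinucleotide that is methylated in mammals and is dense in the islands bound by Polycomb and Trithorax proteins.
Hoxa5 (chr6:52204588-52204837, minus strand): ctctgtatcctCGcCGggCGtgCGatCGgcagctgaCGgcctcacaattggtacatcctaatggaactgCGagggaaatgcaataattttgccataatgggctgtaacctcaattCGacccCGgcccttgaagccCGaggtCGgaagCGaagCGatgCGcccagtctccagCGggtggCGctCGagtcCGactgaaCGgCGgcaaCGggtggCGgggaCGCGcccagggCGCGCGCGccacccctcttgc
Hoxa6 (chr6:52208673-52208922, minus strand): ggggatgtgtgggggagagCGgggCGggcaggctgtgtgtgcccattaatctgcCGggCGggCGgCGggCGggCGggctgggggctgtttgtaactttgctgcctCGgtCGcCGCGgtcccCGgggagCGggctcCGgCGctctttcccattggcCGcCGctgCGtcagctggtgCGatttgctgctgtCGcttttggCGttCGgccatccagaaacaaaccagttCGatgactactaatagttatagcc
Hoxd8 (chr2:74704365-74704614, plus strand): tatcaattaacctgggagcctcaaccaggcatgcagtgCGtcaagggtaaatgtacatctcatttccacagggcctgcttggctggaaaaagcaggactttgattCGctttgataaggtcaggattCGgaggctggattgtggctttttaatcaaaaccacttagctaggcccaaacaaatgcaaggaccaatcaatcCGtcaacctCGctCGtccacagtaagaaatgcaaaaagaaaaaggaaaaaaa
Hoxd13 (chr2:74667975-74668224, plus strand): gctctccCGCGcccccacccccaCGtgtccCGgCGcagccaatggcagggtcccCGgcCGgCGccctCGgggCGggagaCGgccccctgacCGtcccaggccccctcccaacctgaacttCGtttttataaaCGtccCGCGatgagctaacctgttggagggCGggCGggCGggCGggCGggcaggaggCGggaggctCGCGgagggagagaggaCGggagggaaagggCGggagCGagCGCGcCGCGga
The Hoxa5 window held 28 CpG and the Hoxa6 window 24. The Hoxd8 window held 6 CpG and the Hoxd13 window 31. In this RefSeq table, 20 of the 33 measured genes had a window, 22 windows in all, with a median of 13 CpG against 6 over all 32851 windows. Hoxb3, Hoxb6 and Hoxb13, also bright in both lines, had no window. The 2 windows of bright genes had a median of 17 CpG, and the 11 of genes dim in both lines had 13. Probes report unequally between genes, and whether CpG goes with signal was not tested. The letters TGATNNAT, a form of the site that Hox and Pbx proteins bind together, occurred on either strand in 4 of the 22 windows, those of Hoxa2, Hoxb1, Hoxb8 and 1 of the 2 starts of Hoxd11. They occurred in 7.68% of all windows. Motifs were searched one by one, so matches of different motifs may overlap. TAATTA, a core that many homeodomains bind, occurred in both windows of Hoxd11 and in no other, against 4.84% of all windows. None of the 4 windows printed held either motif.

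Ucp1 itself read 0.222, 0.232 and 0.278 on the control arrays and 2.34, 2.02 and 1.54 on the UCP1 arrays (limma, adjusted p = 0.00013), as the labels say. Values are scaled intensities, with array medians between 1.04 and 1.05, and differences are on the log2 scale. The median difference of all genes was -0.08, and that of the 5847 genes above the floor defined next was -0.14, which quantile normalization moved to 0.02.

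The deposited values carry no mark of detection, so a floor was set from genes of sensory neurons, the olfactory and vomeronasal receptors. The floor of an array was the 95th percentile over 587 such receptor genes, and lay at intensities of 4.57 to 5.21 over the 6 arrays. A gene was placed above the floor in a group when its probe exceeded it on all 3 arrays of that group, in a middle band when it exceeded the array median on all 3, and called dim otherwise. Probes differ in how brightly they report the same amount of RNA, so a band says where a probe reads and is no order of levels between genes. By construction about 5% of the receptor genes exceed the floor, and a dim probe does not show that a gene is silent.

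Probes above the array median belonged to all 4 clusters, and those above the floor to HoxA, HoxB and HoxD. Above the floor in both groups were 5 of the 33 genes, Hoxa5, Hoxb3, Hoxb6, Hoxb13 and Hoxd8, against 32.5% of all 18014 genes tested. Control and UCP1 each had 6 genes above the floor, the sixth being Hoxb5 in control and Hoxd10 in UCP1. Each group had 11 genes in the middle band and 16 dim. The band was the same in both groups for 29 of 33 genes, against 93.2% of all genes. The other 4 were Hoxa10 and Hoxd10, which moved up a band in UCP1, and Hoxb5 and Hoxc6, which moved down.

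**Figure D1:**
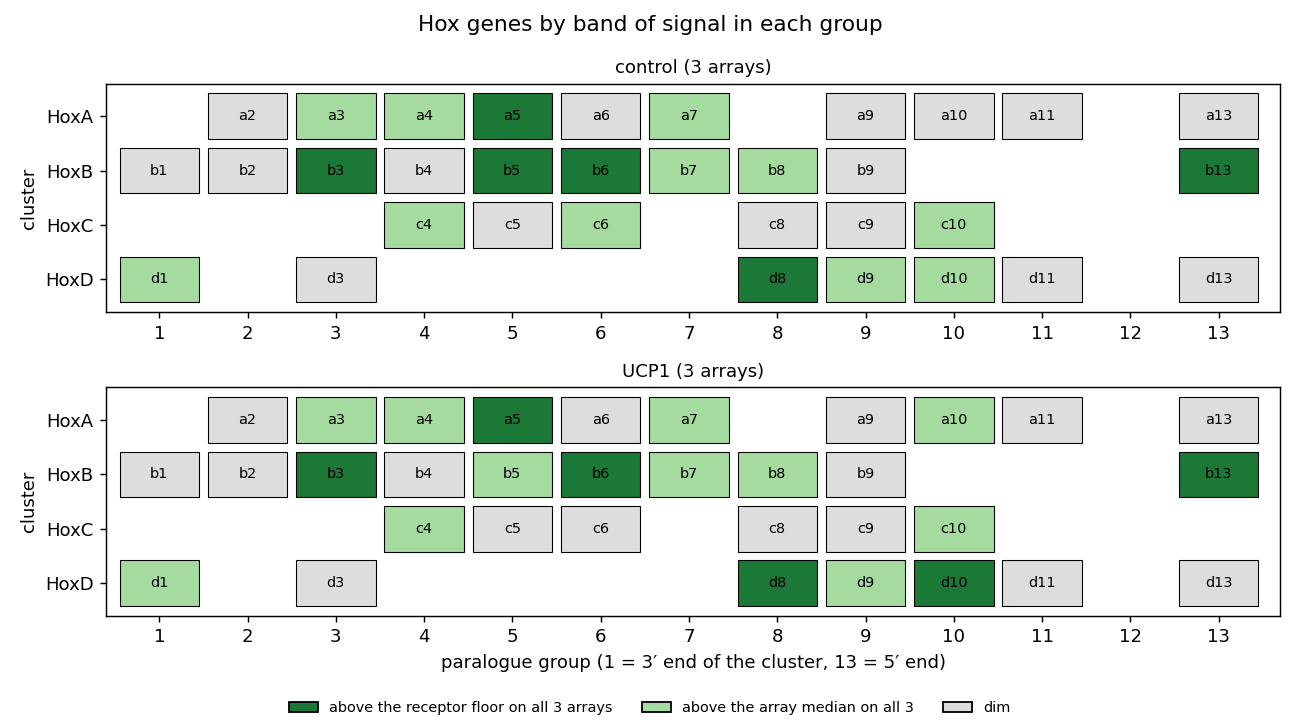
Each box is 1 Hox gene, placed by cluster (rows) and paralogue group (columns), and its colour is the band of its probe on the 3 arrays of the control (top) and UCP1 (bottom) groups; places without a box have no measured gene. The same 5 genes are darkest in both panels, and 4 boxes, a10, b5, c6 and d10, differ between them.

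By position, 1 of the 7 measured genes of paralogue groups 1 to 3 was above the floor in both groups (Hoxb3), 3 of 14 of groups 4 to 8 (Hoxa5, Hoxb6, Hoxd8) and 1 of 12 of groups 9 to 13 (Hoxb13). HoxB held 3 of the 5, HoxA and HoxD 1 each, and HoxC none of its 6 measured genes. At the 5′ ends, Hoxa9, Hoxa11, Hoxa13, Hoxb9, Hoxc9, Hoxd11 and Hoxd13 were dim in both groups.

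Among the 3′ genes, Hoxb3, which patterns the hindbrain and neck, read 23.7, 25.3 and 24.9 in control and 27.5, 21.0 and 32.0 in UCP1. All 6 arrays were above the floor and the groups overlapped, with UCP1 the more spread. The difference was 0.10 ± 0.148 (SE), with a 95% interval from -0.22 to 0.42 (limma, adjusted p = 0.781). Its paralogue Hoxa3, which acts in the pharyngeal arches, read 4.84, 4.73 and 5.49 in control and 5.21, 4.57 and 5.28 in UCP1, above the floor on 4 of 6 arrays. The difference was -0.0011 ± 0.12 (SE). Hoxd1, which acts in sensory neurons, read 1.27, 1.24 and 1.33 in control and 1.28, 1.21 and 1.14 in UCP1, just above the array median. Hoxd3 was dim, at 0.572 to 0.763 in control and 0.446 to 0.740 in UCP1, and Hoxb1, a gene of the hindbrain, lay at 0.190 to 0.282 over all 6 arrays.

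In the middle of the clusters, Hoxa5, which patterns the neck and upper trunk and is active in white fat, read 19.9, 23.2 and 22.1 in control and 25.1, 20.2 and 18.6 in UCP1. Both groups lay above at least 99.1% of the receptor genes, and UCP1 arrays fell on both sides of the controls. The difference was -0.03 ± 0.133 (SE), with an interval from -0.33 to 0.26 (limma, adjusted p = 0.926). Hoxd8, a gene of the trunk, read 73.9, 70.4 and 68.2 in control and 85.8, 63.9 and 57.3 in UCP1, above 99.49% to 99.66% of the receptor genes. The 3 control arrays lay within the span of the UCP1 arrays, and the difference was -0.06 ± 0.159 (SE), with an interval from -0.41 to 0.29 (limma, adjusted p = 0.893). Hoxa5 and Hoxd8 stood at slightly positive differences after quantile normalization, 0.11 and 0.16.

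Hoxb6, which acts in the trunk, read 7.22, 8.25 and 8.12 in control and 9.14, 6.92 and 8.03 in UCP1, with a difference of 0.02 ± 0.128 (SE). Hoxb5, which acts in the trunk and gut wall, read 6.03, 4.79 and 6.12 in control and 5.29, 4.43 and 4.33 in UCP1. It stayed above the floor on 3 control arrays and 1 UCP1 array, but the groups overlapped and the difference of -0.27 ± 0.136 (SE) did not pass (limma, adjusted p = 0.355). Hoxa7 read 4.76, 4.47 and 4.83 in control and 5.30, 4.36 and 5.88 in UCP1, so that 3 of its 6 arrays were above the floor. Hoxb7 lay lower in the middle band, at 2.21, 2.10 and 2.65 in control and 2.61, 1.996 and 2.27 in UCP1.

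Several HoxC genes are higher in white than in brown fat. Of the 6 measured here 0 were above the floor, and 3 in control and 2 in UCP1 lay in the middle band. Hoxc10, a gene of the lumbar region and hind limb, read 3.55, 3.52 and 3.17 in control and 3.40, 2.87 and 3.43 in UCP1, below the floor on all 6 arrays and above the array median on all 6. Its difference was -0.08 ± 0.128 (SE). Hoxc4 read 1.07 to 1.24 in control and 1.23 to 1.33 in UCP1. Hoxc6 read 1.24, 1.48 and 1.37 in control and 1.24, 1.12 and 1.03 in UCP1, the last just under its array's median. Hoxc8 and Hoxc9, which pattern the thorax, were dim, at 0.173 to 0.335 and 0.159 to 0.324 in control and 0.175 to 0.328 and 0.241 to 0.546 in UCP1.

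At the 5′ ends, Hoxb13, a gene of the tail bud, prostate and hindgut, read 15.2, 11.7 and 13.3 in control and 14.9, 11.9 and 10.8 in UCP1. It lay above 98.81% to 98.98% of the receptor genes, although Hoxb9, the next measured gene of that cluster, read 0.208 to 0.528 over the 6 arrays. The difference of Hoxb13 was -0.10 ± 0.145 (SE), with an interval from -0.42 to 0.21 (limma, adjusted p = 0.771). A single probe reports it, so no second probe could be set beside it. Hoxd10, which acts in the hind limb and its motor neurons, read 5.15, 5.31 and 4.54 in control and 5.95, 4.87 and 5.26 in UCP1, with a difference of 0.10 ± 0.124 (SE). Its neighbour Hoxd9 read 2.52, 2.85 and 2.60 in control and 2.11, 2.59 and 2.14 in UCP1, with a difference of -0.22 ± 0.138 (SE). The genes of groups 11 and 13 in HoxA and HoxD all read below 0.7, with differences whose SE ran from 0.416 for Hoxd13 to 0.833 for Hoxd11.

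**Figure D2:**
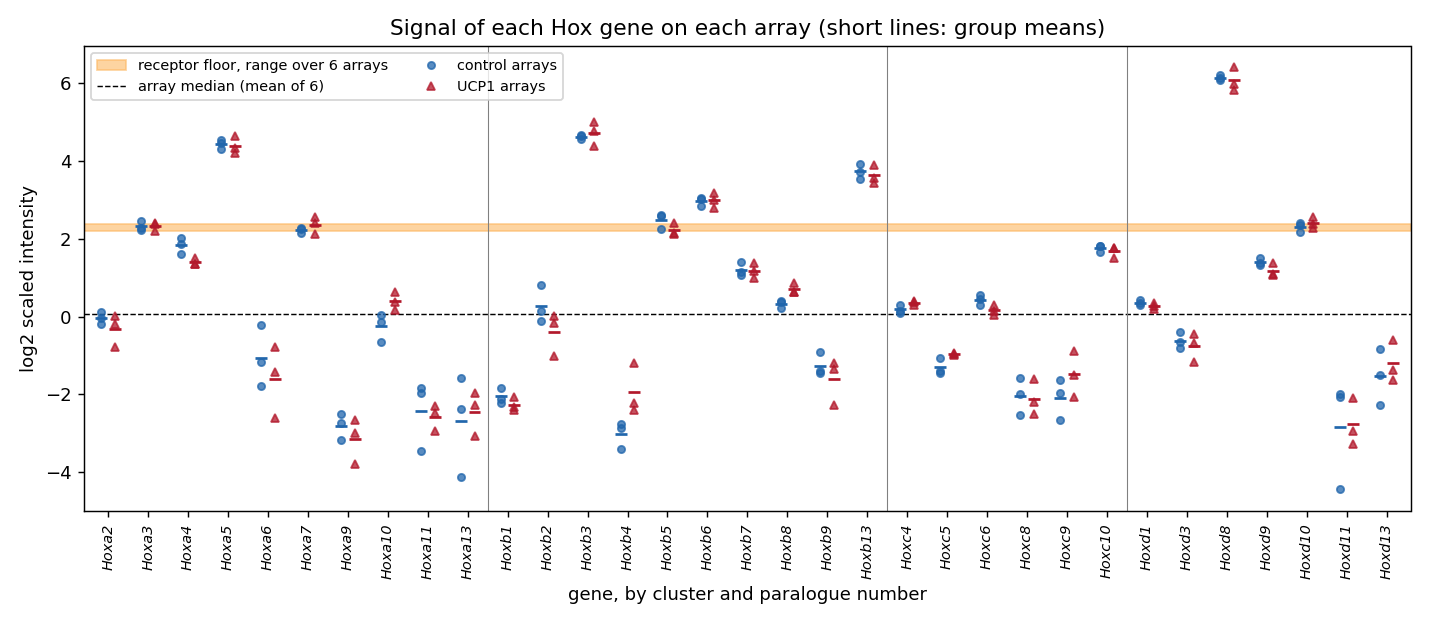
Log2 scaled intensity of the probe of each of the 33 measured Hox genes on each array, with blue circles for the 3 control arrays, red triangles for the 3 UCP1 arrays, and short lines for the group means. The orange band spans the floors of the 6 arrays and the dashed line is the array median; for most genes the 2 groups overlie each other, and the arrays scatter more at the dim end. Probes report unequally, so heights are comparable within a gene only.

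None of the 33 Hox genes differed between UCP1 and control cells at an adjusted p under 0.05 (limma, Benjamini-Hochberg over all 36116 probes), against 2.83% of the probes and 4.05% of the 18014 genes. Without adjustment 4 genes had a p under 0.05, against 20.8% of all genes, with 2 higher and 2 lower in UCP1. The smallest adjusted p was 0.129. The median difference of the 33 genes was -0.06, with 13 higher and 20 lower, beside -0.08 over all genes. After quantile normalization 18 were higher and 15 lower, so which direction prevailed turned on the normalization.

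The precision differed between bright and dim genes. The 95% interval of the difference lay within 0.5 of 0 on the log2 scale for 11 genes. These were the 5 above the floor in both groups and Hoxa3, Hoxa7, Hoxb7, Hoxc10, Hoxd1 and Hoxd10. It lay within 1 of 0, a 2-fold change, for 20 of 33. Among the 16 genes above the array median in both groups the median size of the difference was 0.10 and the largest 0.42, beside a median of 0.19 for the 9988 genes so placed in the whole series. Among the 17 that were dim in at least 1 group the median size was 0.33, with a median SE of 0.443, and for 13 of them the interval reached beyond 1 in size.

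**Figure D3:**
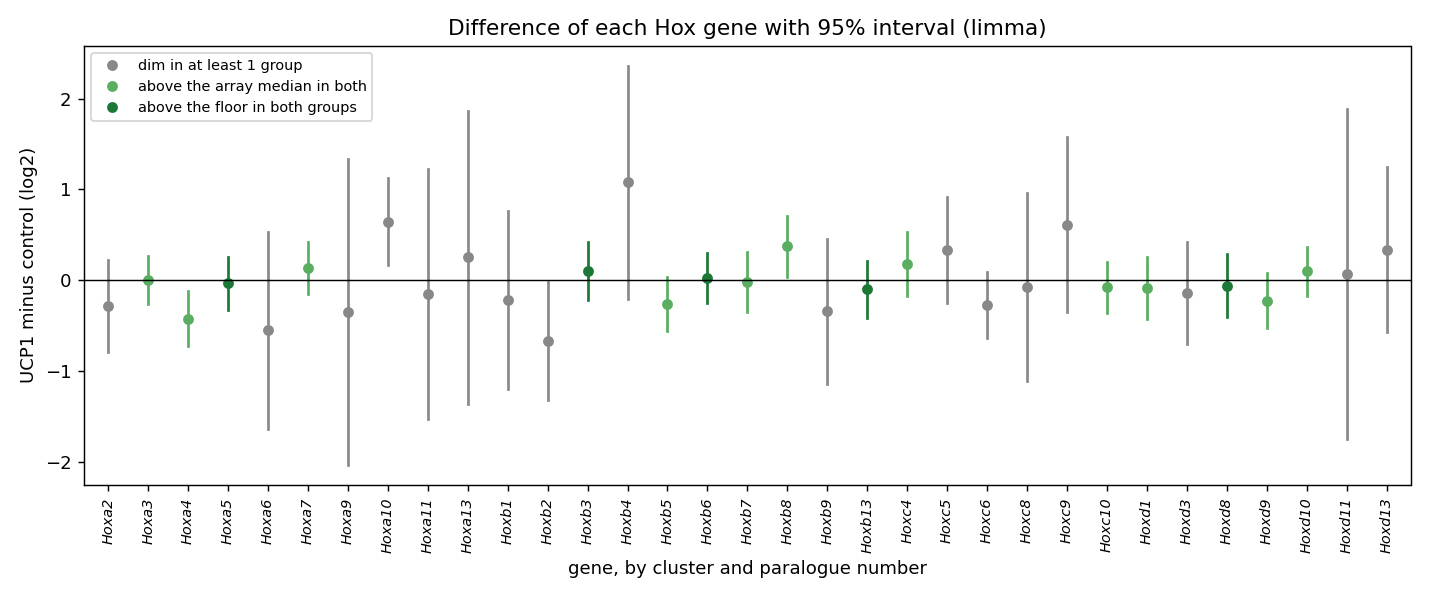
Difference of each Hox gene, UCP1 minus control on the log2 scale, with its 95% interval from limma, coloured by band. The intervals of bright genes are short and include 0, as for Hoxa5 from -0.33 to 0.26, while that of dim Hoxd11 runs from -1.75 to 1.88.

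The 4 genes with an unadjusted p under 0.05 did not pass the test over all probes. Hoxa4, a gene of the neck region, read 4.07, 3.08 and 3.65 in control and 2.58, 2.86 and 2.57 in UCP1. Each UCP1 array was below each control array, and the difference was -0.42 ± 0.138 (SE) (limma, adjusted p = 0.129). Hoxa10, which acts in the uterus and lumbar spine, read 0.908, 1.03 and 0.631 in control and 1.13, 1.54 and 1.29 in UCP1. Each UCP1 array was above each control array, the difference was 0.64 ± 0.218 (SE), and the adjusted p was 0.144 (limma). When probes below the median probe were left out before the fit, Hoxa10 passed at an adjusted p = 0.0419 (limma), as the 1 of 18 Hox genes kept, a setting under which 13.6% of genes passed. Its mean log2 value was -0.25 in control and 0.39 in UCP1. The filter thus kept Hoxa10 through its UCP1 values, and the pass is no support for a difference.

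Hoxb8, a gene of the lower trunk and of blood progenitors, read 1.32, 1.17 and 1.30 in control and 1.55, 1.54 and 1.82 in UCP1. The groups did not overlap, and the difference was 0.37 ± 0.155 (SE) (limma, adjusted p = 0.239). Hoxb2, a gene of the hindbrain, read 1.75, 0.924 and 1.10 in control and 0.494, 1.00 and 0.890 in UCP1, with overlap between the groups and a difference of -0.67 ± 0.297 (SE) (limma, adjusted p = 0.276). It moved to -0.41 without control 1, the array on which it was highest, and to -0.36 without UCP1 1, on which it was lowest.

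In all, groups did not overlap for 5 of 33 genes, against 25.2% of all genes with 6 values. Besides Hoxa4, Hoxa10 and Hoxb8 these were Hoxc5 and Hoxb4, both dim. Hoxb4, which acts in the neck and in blood stem cells, had the largest difference of all 33, 1.08 ± 0.588 (SE) (limma, adjusted p = 0.392). It read 0.147, 0.0941 and 0.137 in control and 0.190, 0.439 and 0.214 in UCP1, so UCP1 2 stood apart from the other arrays and all 6 readings lay far below the floor. The difference ranged from 0.70 to 1.31 when 1 array was left out, and was 0.65 with the offset before log2. Hoxc5 read 0.366, 0.482 and 0.381 in control and 0.5005, 0.526 and 0.511 in UCP1, with a difference of 0.33 ± 0.268 (SE).

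**Figure D4:**
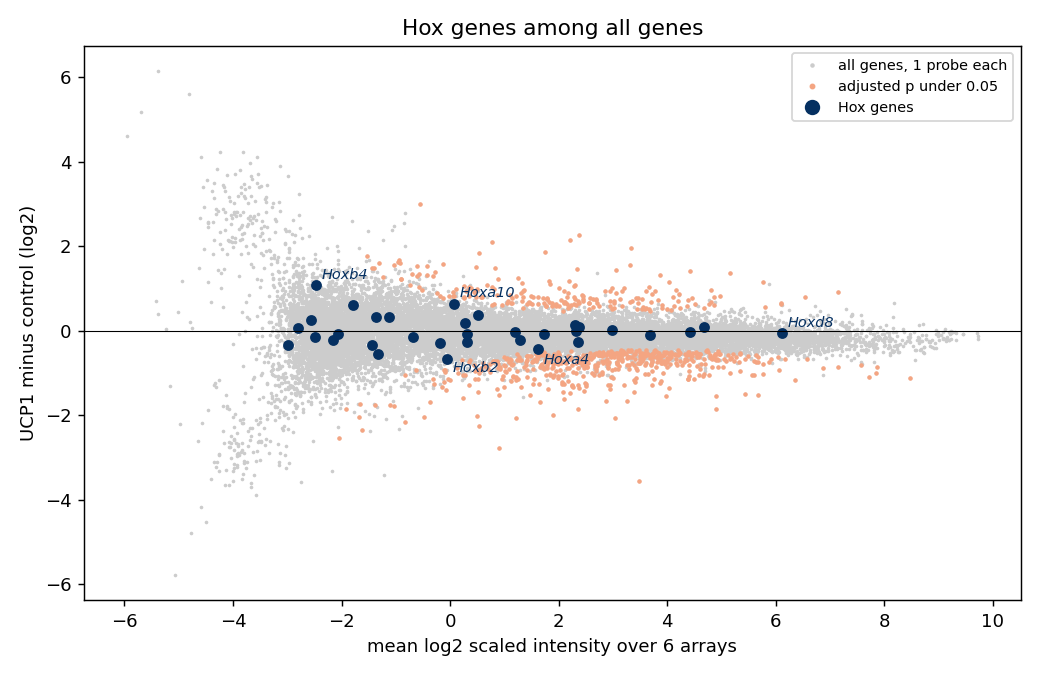
Difference, UCP1 minus control on the log2 scale, against the mean log2 scaled intensity over 6 arrays, for 18014 genes (grey), those with an adjusted p under 0.05 (orange) and the 33 Hox genes (dark blue). No Hox gene lies among the called genes, and the spread of all genes widens towards the dim end, where Hoxb4 lies at 1.08.

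Across the 33 Hox genes, log2 values of 2 arrays correlated at r = 0.950 to 0.975 within control, 0.963 to 0.981 within UCP1 and 0.950 to 0.978 between the groups. Over the 18031 brighter probes of the whole series, the values were 0.993 to 0.995 within control, 0.985 to 0.992 within UCP1 and 0.976 to 0.988 between the groups, below those within control. The Hox genes include dim probes and those brighter probes do not, so the sizes of r in the 2 sets are not comparable. The points share probes, and the correlation is over genes, which are not independent replicates.

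Among genes that act with or on Hox genes, or lie beside them, 0 rose and 3 fell, in a comparison where 1.13% of genes rose and 2.92% fell. Of 7 measured cofactors 0 rose and 0 fell, with 3 above the floor in both groups, Pbx2, Meis1 and Meis2. Pbx2 and Meis2, which had the smallest p, stood at -0.24 ± 0.117 (SE) and -0.29 ± 0.111 (SE). Of 29 Polycomb genes 0 passed, with a median of -0.13. In control 19 of these were above the floor. All genes above it in both groups had a median of -0.14, or 0.02 after quantile normalization. Ezh1, a histone H3 lysine 27 methyltransferase, and Mtf2, which targets that enzyme complex to CpG islands, had the smallest p of the Polycomb genes. They stood at -0.36 ± 0.126 (SE) and -0.52 ± 0.182 (SE). Of 14 Trithorax and demethylase genes Wdr5, a scaffold of histone H3 lysine 4 methyltransferases, was the 1 that fell, by 0.50 on the log2 scale, at the edge of the threshold (limma, adjusted p = 0.0489). It read 9.55, 8.73 and 8.60 in control and 7.15, 6.23 and 5.72 in UCP1. The call was lost under 7 of 16 alternatives (adjusted p from 0.0163 to 0.283 over them), among them leaving out control 1 (0.185), control 2 (0.127), control 3 (0.0972), UCP1 2 (0.0584) or UCP1 3 (0.242).

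Of 11 genes listed as acting upstream of Hox genes, Egr2, which activates Hoxb2 in the hindbrain, was the 1 that fell. It read 7.50, 7.32 and 8.11 in control and 5.72, 3.25 and 4.84 in UCP1. The difference was -0.77 ± 0.178 (SE) (limma, adjusted p = 0.043). That call was lost under 7 of 16 alternatives, among them quantile normalization (adjusted p = 0.0712, in a range from 0.0109 to 0.295) and leaving out control 1 (0.113), control 2 (0.0926), control 3 (0.103) or UCP1 3 (0.162). Of 17 neighbours of the clusters 10 were above the floor in each group, and Skap2, an adaptor protein beside HoxA, was the 1 that fell, from 8.12, 7.97 and 7.14 to 4.84, 6.14 and 5.24, a difference of -0.52 ± 0.124 (SE) (limma, adjusted p = 0.0473). Its call was lost under 9 of 16 alternatives, quantile normalization included (adjusted p = 0.117, in a range from 0.0134 to 0.282). It was also lost without control 1 (0.168), control 2 (0.147), control 3 (0.0716), UCP1 1 (0.0544) or UCP1 3 (0.213).

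Among 38 other positional genes, mostly homeobox and T-box genes of limb, trunk and head, 1 rose and 0 fell, with a median difference of 0.0013. Nr2f1, a nuclear receptor of the forebrain and neural crest, rose from 3.21, 2.66 and 2.63 in control to 5.80, 5.99 and 5.45 in UCP1. Every UCP1 array lay above every control array, the difference was 1.03 ± 0.125 (SE) (limma, adjusted p = 0.00196), and it held under 15 of 16 alternatives, being lost without the intensity trend (adjusted p = 0.186, the highest of a range that began at 0.000228). The gene's second probe stood at -0.27 ± 0.725 (SE) and did not pass. In this list 10 genes were above the floor in control and none of the 10 passed. All 10 are named here, outside the rule for naming. En1, a homeobox gene of ventral skin and midbrain, stood at 0.49 ± 0.136 (SE), with every UCP1 array above every control array (limma, adjusted p = 0.0806). Irx3 stood at -0.45 ± 0.128 (SE), with every UCP1 array below every control array (limma, adjusted p = 0.0874). Barx2, Prrx2, Pax3 and Nr2f2 stood at 0.34, 0.32, 0.10 and 0.07, and Otx1, Shox2, Tbx5 and Irx5 at -0.25, -0.11, -0.07 and -0.03.

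Of 10 adipocyte markers 7 were above the floor in each group. Cebpa and Lep lay in the middle band and Lipe was dim, in both groups. The median difference of the 10 was -0.09. Cebpa read 6.72, 4.33 and 3.50 in control and 2.79, 4.01 and 2.16 in UCP1, with overlap between the groups. Its difference of -0.69 ± 0.248 (SE) did not pass (limma, adjusted p = 0.167). Lep, the hormone leptin, read 1.22, 1.18 and 1.15 in control and 3.1, 1.84 and 2.52 in UCP1, below the floor on every array. It rose by 1.04 log2 units (limma, adjusted p = 0.0153), while Slc2a4, the insulin-responsive glucose transporter, fell by 0.74 (limma, adjusted p = 0.0152). Neither call held without UCP1 3 (adjusted p = 0.117 and 0.114), and neither held without the intensity trend (0.233 and 0.244). That of Slc2a4 was also lost without control 1 (0.0635), and the second Slc2a4 probe did not pass (adjusted p = 0.200). Summed intensity of the 10 was 3425 to 3931 in control and 2821 to 3892 in UCP1. Markers of other cell types were measured alongside, and their part in the Hox values was not tested. Of 5 macrophage markers 1 rose, Lyz2, a lysozyme (difference 1.48, limma, adjusted p = 0.00571). It read 1.34, 1.08 and 0.830 in control and 2.46, 3.98 and 2.675 in UCP1, below the floor on every array. The defining genes Ptprc, Itgam and Adgre1 read at most 0.334 on any array. The call of Lyz2 was lost under 1 of 16 alternatives, the fit without the intensity trend (adjusted p = 0.221). Cd14, a receptor for bacterial lipopolysaccharide, was above the floor in both groups, at 13.9, 14.4 and 9.99 in control and 11.4, 10.5 and 10.6 in UCP1, and made up most of the sum. The summed level was 11.05 to 16.2 in control and 13.8 to 14.9 in UCP1. None of 6 endothelial (sums 1.40 to 2.13 and 1.75 to 3.01), 7 skeletal muscle (8.33 to 10.6 and 6.85 to 8.11), 5 epithelial (2.40 to 2.93 and 2.65 to 3.84) or 6 neural markers (6.64 to 8.02 and 7.30 to 8.71) passed. Des, an intermediate filament protein of muscle, was above the floor in control and stood at -0.60 ± 0.163 (SE) (limma, adjusted p = 0.074). It read 7.46, 6.62 and 7.11 in control and 3.65, 6.01 and 4.59 in UCP1, each UCP1 array below each control array. It stayed uncalled under only 13 of 16 alternatives (limma, adjusted p from 0.0065 to 0.326 over them). Myh4, a muscle myosin, stood at -0.75 ± 0.634 (SE) on a probe dim in both groups and at 0.72 ± 0.964 (SE) on its other probe. The endothelial Tie1 and Vwf stood at 0.69 and 0.47, the epithelial Krt5 and Krt14 at 0.44 and -0.68, the glial Gfap at 0.49 and the neuronal Syp at 0.23. Gfap stayed uncalled under 15 of 16 alternatives (limma, lowest adjusted p = 0.0379). All arrays were of cultured 3T3-L1 adipocytes, so a marker's name does not show that cells of that type were present. In bulk RNA fewer cells of a type and less RNA per cell cannot be told apart.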

How the data were processed

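Per the labels, biotin-labelled total RNA was hybridised to CodeLink arrays. The authors deposited linear intensity values scaled to a near common median; the labels name no scanner software, background correction or array build. The code -9999 was missing, log2 was taken after values at or below 0 were raised to that array's lowest positive value. Probes with values on at least 2 arrays per group (36116 of 36227) were fitted with limma 3.58.1 in R 4.3.3 (lmFit, eBayes with intensity trend, two-sided, Benjamini-Hochberg, 0.05), which was tested on simulated data. Precision is limited by having 3 arrays in a group. Of all probes 21615 had 1 symbol, 681 several (left unnamed) and 13931 none; 21487 matched RefSeq identifiers of GRCm38.p6 and 0 symbols changed.

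Every Hox gene could be named, and from each other list the called members, at most 4 by size, or the 2 with the smallest p. Hox genes below the floor that are given on every array were chosen after their values were seen. So were, outside that rule, Meis1, Cebpa, Lipe, Ptprc, Itgam, Adgre1, Cd14 and the positional genes above the floor. The members, lists and rules were chosen with earlier results of these data known. Promoter windows were the RefSeq table's 250 bases before a start. Alternatives were an offset of 0.125 before log2, quantile, cyclic loess or median scaling, brighter or complete probes only, eBayes without trend or robust, array weights, the replicate number as a block, every probe, other floors, and each array left out.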

Additional observations from a re-analysis of the deposited data

How the results depend on the processing

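Across the alternatives listed for the Hox genes, the count of calls was 0 in all but 1. That exception was the fit on probes at or above the median probe, where 1 of 18 passed. This was Hoxa10, which that filter kept through its UCP1 values, so the pass is no support for a difference. Leaving out 1 array at a time gave 0 calls each time, 6 to 7 genes above the floor in control and 6 to 8 in UCP1. The number above the floor depended on the percentile. At the 90th percentile of receptor genes it was 11 in control and 10 in UCP1, at the 99th 3 in each, and at the array median 17 in each.

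No Hox difference that changed sign was called. Hoxa3 was 0.075 with quantile normalization, 0.073 with cyclic loess and 0.0022 with median centring. With quantile normalization and cyclic loess, Hoxa5 was 0.11 and 0.10, Hoxb7 0.032 and 0.013, Hoxb13 0.021 and 0.0090, and Hoxd8 0.16 and 0.14. Hoxb6 was -0.0046 with array weights, and Hoxd11 -0.055 with the offset. With 1 array left out, the ranges that crossed 0 were -0.043 to 0.065 for Hoxa3, -0.16 to 0.056 for Hoxa5, -0.68 to 0.14 for Hoxa11, -0.46 to 0.81 for Hoxa13, -0.036 to 0.27 for Hoxb3, -0.075 to 0.13 for Hoxb6, -0.12 to 0.081 for Hoxb7, -0.32 to 0.15 for Hoxc8, -0.13 to 0.0036 for Hoxc10, -0.30 to 0.065 for Hoxd3, -0.23 to 0.064 for Hoxd8, -0.74 to 0.49 for Hoxd11 and -0.036 to 0.69 for Hoxd13. The cause was not tested.

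The replicate number as a block gave 0 Hox calls, and Wdr5 and Skap2 stood at adjusted p = 0.056 and 0.0639 (limma). Deviations of same-numbered arrays from their group means correlated at -0.24, -0.01 and 0.10, and control 1 correlated best with UCP1 2 (0.35). Deviations from a mean of 3 arrays are tied to each other. These values therefore cannot decide whether same-numbered arrays were handled together, and the labels do not say. For other named genes the alternatives were run after seeing the data. Dim signal is one limit: 17 of 33 Hox genes were dim in at least 1 group.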

Other observations

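Transcripts named after the Hox clusters but outside the coding genes were also on the arrays. Hoxd3os1, an opposite-strand transcript of the HoxD cluster, had a probe at log2 1.56, 1.87 and 1.83 in control and 1.74, 1.58 and 1.48 in UCP1, with overlapping groups and a difference of -0.15 ± 0.136 (SE). Its other probe lay at 0.36 ± 0.399 (SE) and was dim, while Hoxd3 itself, at -0.65, -0.81 and -0.39 in control and -1.16, -0.67 and -0.43 in UCP1, lay below the array medians. Hoxb5os stood at -0.08 ± 0.481 (SE) and Hoxaas3 at 0.64 ± 0.828 (SE), both dim, and none of these passed (limma, lowest adjusted p = 0.625). The second probe of Hoxd13 stood at 0.86 ± 1.19 (SE), with control readings from log2 -5.79 to -1.98.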
